A study of Mus musculus with 6 samples.

Results

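Epididymal white fat of mice kept on a continuous high-fat diet, group F-H, was compared with that of mice kept on a continuous low-fat diet, group F-L, by messenger RNA sequencing, gene by gene across the whole transcriptome. The comparison rests on 4 of the 6 libraries of the series, 2 per group, and covers all 48897 genes of the count table, of which 22289 had enough counts to be tested. All animals were wild type C57BL/6 mice aged 35 weeks. The F-H mice received a diet with 60% of its calories from fat, begun at 6 weeks of age. Mice of a further group, F-H-L, alternated weekly between that diet and a low-fat diet over 10 cycles after a first period on high fat. The F-L mice received a diet with 10% of its calories from fat throughout. The codes are tied to the diets by their letters only. Whether the libraries stem from different mice is not stated, so p-values measure only the spread between these samples, part of which may be technical.

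Epididymal fat is the visceral depot beside the male reproductive tract, and besides adipocytes it holds blood vessels, progenitor cells and immune cells. In obese mice this depot is known for gathering macrophages that take up lipid from dying adipocytes, and such cells carry their own set of membrane carriers, nucleotide receptors and GTPase switches. Carriers move sugars, amino acids and ions across membranes, G protein-coupled receptors and ion channels read signals outside the cell, and small GTPases turn those signals into movement and growth.

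Total counts ran from 41091012 to 49230161 per library, and levels are given as CPM, the counts scaled to a common library size with edgeR's TMM factors. Log2 CPM correlated across genes, which are not independent replicates, at r = 0.948 between the F-H libraries and 0.815 between the F-L libraries. The 20 adipocyte markers took 2.64% and 3.65% of the counts in F-H, against 0.485% and 4.0% in F-L, so F-L replicate 1 stood apart in the defining markers of the labelled tissue. Of the 20 macrophage markers, 20 had a positive fold change, against 46.1% of all genes tested. Among them 9 passed the test as higher (45%, against 0.615% of all genes). The macrophage markers took 2.13% and 1.45% of the counts in F-H, against 0.0739% and 0.143% in F-L. The 29 epididymis markers took 0.00356% and 0.0625% in F-H, against 2.56% and 0.506% in F-L, and the 20 testis germ cell markers took 0.00432% and 0.00831% in F-H, against 0.0859% and 0.878% in F-L. In bulk tissue, more cells of a type and more RNA per cell cannot be told apart. These marker levels moved with the groups of genes described here, and their part in each result was not tested.

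Of the 22289 genes tested, 193 (0.866%) passed an adjusted p of 0.05 (edgeR's quasi-likelihood test with Benjamini-Hochberg adjustment, which applies to every gene named here as having passed), 137 of them higher in F-H (0.615%) and 56 lower (0.251%). The adjusted p-values of these genes lay between 0.0448 and 0.0497, just inside the threshold, and the next gene outside it stood at 0.05. The bracketed pair behind a gene's levels is the log2 fold change of F-H over F-L ± SE (n = 2 libraries per group). The genes that rose had a median log2 fold change of 3.83, and the genes that fell had a median of -7.95. The calls changed with the fit: none passed when either F-H library was left out, when only the 4 libraries of both groups were fitted, or with median-ratio scaling, and DESeq2 called 6035 genes, all 193 among them. Scaling the libraries to the adipocyte markers turned the split to 121 higher and 3651 lower, and 76 of the 193 genes passed under it, although all 193 kept their sign. The folds of Zfp36 and Pcdh7 shrank to 0.08 and 0.09 on the log2 scale in that fit. At an adjusted p of 0.1, 3152 genes (14.1%) passed, 1500 higher (6.73%) and 1652 lower (7.41%). An unadjusted p under 0.05 by edgeR was reached by 6507 of the 22289 genes, the background for such counts within the gene lists.

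The F-L libraries differed by a median of 2.04-fold per gene, and 48.8% of the genes tested lay within 2-fold of each other in them. For the 137 genes that rose, the F-L libraries differed by a median of 1.39-fold and 125 lay within 2-fold. For the 56 genes that fell, the median was 2.61-fold and 20 lay within 2-fold. The test uses the spread within groups, so closeness of the F-L libraries among genes that passed is in part set by the selection. Groups without overlap were common over all genes, 27% of which had both F-H libraries above both F-L libraries and 28.8% below, so that separation alone marks no gene out. Every gene that passed was without overlap, 137 higher and 56 lower, so separation is no further support for any of them. All 193 passed with the same sign when F-L replicate 1 was left out and again when F-L replicate 2 was left out, fits in which 4474 of 26552 genes (16.8%) and 5799 of 24350 genes (23.8%) passed. In each of those fits the remaining F-L library was assumed to vary like the libraries of the other groups. Across both fits, 1906 genes (8.55%) passed with the same sign, 1119 higher in F-H (5.02%) and 787 lower (3.53%). In 121 of the 137 genes that rose, F-H replicate 1 was above F-H replicate 2.

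**Figure D1:**
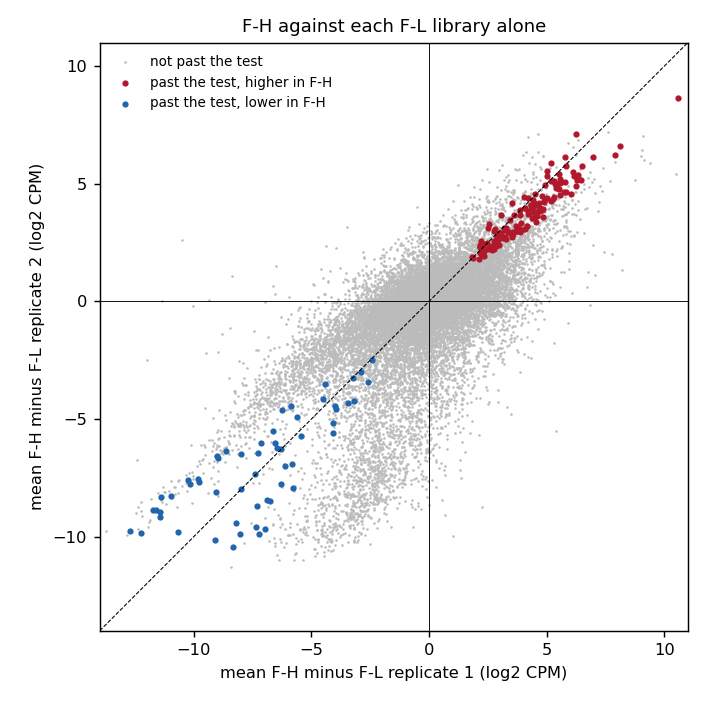
Mean log2 CPM of the F-H libraries minus log2 CPM of F-L replicate 1 (x axis) and of F-L replicate 2 (y axis), 1 point per gene tested, with the 137 genes that passed and were higher in F-H in red, the 56 that passed and were lower in blue, and equal differences on the dashed line. Red points lie close to the line, while blue points spread to both sides of it, and many grey points fall far along 1 axis and little along the other.

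Outside the macrophage, lymphocyte, epididymis and testis markers, the 14 genes that passed with the closest values in the F-L libraries were picked out after the values were seen. Tcirg1, a subunit of the proton pump that acidifies lysosomes, had 302 and 224 CPM in F-H, against 17.8 and 17.7 CPM in F-L (3.89 ± 0.29). Ahnak2, a very large scaffold protein, had 70.8 and 99.7 CPM in F-H, against 7.58 and 7.54 CPM in F-L (3.50 ± 0.31). Hpgds, which makes prostaglandin D2, had 107 and 98.03 CPM in F-H, against 2.81 and 2.88 CPM in F-L (5.17 ± 0.47). In all of these the F-L libraries were almost equal and far below both F-H libraries. Zfp36, which speeds the decay of inflammatory messenger RNAs, showed a smaller step, with 98.5 and 111 CPM in F-H, against 29.2 and 28.6 CPM in F-L (1.86 ± 0.23). Tnfrsf1b, the second TNF receptor, had 378 and 195 CPM in F-H, against 22.3 and 21.4 CPM in F-L (3.71 ± 0.42). Tk1, the thymidine kinase of dividing cells, had 25.5 and 21.4 CPM in F-H, against 2.50 and 2.61 CPM in F-L (3.20 ± 0.43). The F-H libraries of Tnfrsf1b lay further apart than the F-L libraries did, and the groups overlapped for none of these 6 genes. The other members of the 14 were Sh3gl3, Pcdh7, Lrrc1, Bcl2a1b, Cln8, Elovl2, Mgarp and Tmem104.

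Solute carriers moved in both directions. Of 308 carrier genes tested, 7 rose (2.27%) and 3 fell (0.974%), against 0.615% and 0.251% of all genes. Their median log2 fold change was -0.13 (0.09 with F-L replicate 1 left out, 0.04 with F-L replicate 2 left out), against -0.12 over all genes (0.03 and 0.06 in those fits). At an adjusted p of 0.1 by edgeR, 29 carriers were higher (9.42%, against 6.73% of all genes) and 28 lower, against 7.41% of all genes lower. Slc37a2, a sugar phosphate exchanger of the endoplasmic reticulum (chromosome 9, 37229149 to 37255738, mm10), had 269 and 189 CPM in F-H, against 3.10 and 5.59 CPM in F-L (5.72 ± 0.58). Slc11a1, which moves iron and manganese out of phagosomes, had 392 and 199 CPM in F-H, against 7.01 and 12.7 CPM in F-L (4.91 ± 0.54). Both F-H libraries were far above both F-L libraries for each of these genes, and F-H replicate 1 was the highest. Slc15a3, a peptide and histidine carrier of the lysosome, had 224 and 78.9 CPM in F-H, against 3.08 and 4.66 CPM in F-L (5.29 ± 0.71), with a wide gap between the F-H libraries.

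The other 4 carriers that rose did so by smaller folds. Slc6a6, the taurine carrier, had 432 and 405 CPM in F-H, against 93.8 and 78.5 CPM in F-L (2.28 ± 0.28), and the libraries of each group lay close together. Slc6a8, the creatine carrier, had 93.8 and 106 CPM in F-H, against 12.6 and 15.2 CPM in F-L (2.85 ± 0.32). Slc43a2, a carrier of large neutral amino acids, had 157 and 112 CPM in F-H, against 21.2 and 27.5 CPM in F-L (2.46 ± 0.30). Slc8a1, the sodium and calcium exchanger of the plasma membrane, had 67.5 and 50.6 CPM in F-H, against 13.1 and 13.9 CPM in F-L (2.13 ± 0.28). Slc6a6 reached a mean of 59.0 RPKM (a level scaled by gene length and library size) in F-H and 14.2 RPKM in F-L. The 2 carriers of highest mean RPKM, the mitochondrial ADP and ATP exchangers Slc25a4 and Slc25a5, did not pass. Slc25a4 stood at 211 RPKM in F-H and 283 RPKM in F-L (-0.20 ± 0.34, adjusted p = 0.738), and Slc25a5 at 263 RPKM in F-H and 193 RPKM in F-L (0.67 ± 0.35, adjusted p = 0.262), both by edgeR.

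Among the carriers that fell, Slc2a3, the glucose carrier GLUT3 (chromosome 6, 122727809 to 122802274, mm10), had 8.45 and 10.8 CPM in F-H, against 149.6 and 229 CPM in F-L (-4.30 ± 0.39). GLUT3 is known from neurons and sperm, and the testis germ cell markers were also higher in both F-L libraries. Within F-L these markers took 0.0859% of counts in replicate 1 and 0.878% in replicate 2. Their part in the fall of Slc2a3 was not tested. Slc46a2, a carrier described in thymic stroma, had 1 and 5 counts in F-H, against 5376 and 1260 counts in F-L. Slco1a5, an organic anion carrier, had 1 count in each F-H library, against 761 and 336 counts in F-L. Both were highest in F-L replicate 1, the library with the most epididymis marker counts, and the part of epididymis material was not tested. No ABC transporter of 50 tested passed by edgeR, 20 had an unadjusted p under 0.05, DESeq2 called 16, and their median was -0.20 (-0.08 with F-L replicate 1 left out, 0.23 with F-L replicate 2 left out). Of 38 ion pumps and lipid flippases (median 0.02, -0.23 with F-L replicate 1 left out, 0.16 with F-L replicate 2 left out, -1.65 with adipocyte scaling), Atp13a4 alone passed, with 0.0880 and 0.339 CPM in F-H, against 206 and 42.5 CPM in F-L (-9.18 ± 1.19).

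**Figure D2:**
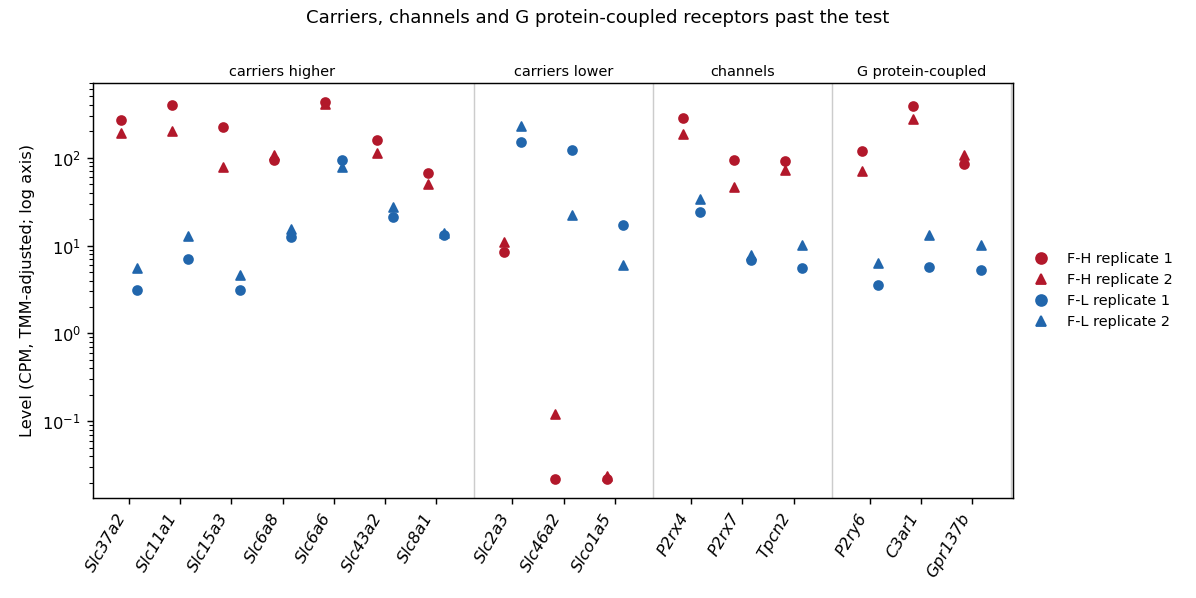
CPM (log axis) of the 16 carriers, channels and G protein-coupled receptors that passed, for each F-H library (red) and each F-L library (blue), with circles for replicate 1 and triangles for replicate 2. The groups do not overlap for any of the 16, as for every gene that passed, and the widest gaps are those of Slc46a2 and Slco1a5.

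Of 208 ion channels tested, 3 passed, and all 3 rose (1.44%, against 0.615% of all genes). Their median was -0.61 (-0.52 with F-L replicate 1 left out, -0.015 with F-L replicate 2 left out, and -2.12 when libraries were scaled to the adipocyte markers, which moved the median of all genes to -1.85). At an adjusted p of 0.1, 20 channels were higher (9.62%, against 6.73% of all genes) and 20 lower, against 7.41% of all genes lower. P2rx4, an ATP-gated cation channel, had 281 and 184 CPM in F-H, against 23.9 and 33.8 CPM in F-L (3.01 ± 0.37). P2rx7, a second ATP-gated channel, opened by high ATP around damaged cells, had 94.7 and 45.8 CPM in F-H, against 6.88 and 7.79 CPM in F-L (3.26 ± 0.44). The genes of both lie side by side on chromosome 5 (P2rx7 at 122643911 to 122691432 and P2rx4 at 122707509 to 122729739, mm10). Tpcn2, a channel of the lysosome membrane, had 90.4 and 71.5 CPM in F-H, against 5.49 and 10.2 CPM in F-L (3.36 ± 0.41). F-H libraries were above F-L libraries for all 3, and reads of P2rx4 cannot be told apart from those of Camkk2 on the opposite strand where they overlap, since the strand setting is not given in the sources used here. In all, 42 of the 115 genes given with values overlap a gene on the other strand in this way, among them Pltp with Ctsa, Tk1 with Afmid, Cd37 with Tead2, Cldn3 with Wbscr25, Cep83os with Cep83, Arhgap9 with Gli1, Irf5 with Tnpo3, Slc15a3 with Tmem132a, Tnfaip8l2 with Lysmd1, Igf2r with Airn and Fdft1 with Ctsb. The most abundant channel subunits by RPKM, Clic1 and Clic4, did not pass (1.39 ± 0.49, adjusted p = 0.137, and 1.34 ± 0.33, adjusted p = 0.0858, edgeR).

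Of 197 G protein-coupled receptors, 3 passed, all higher (1.52%, against 0.615% of all genes). The list had a median of 0.54 (-0.75 with adipocyte scaling), which ran from 0.24 without F-L replicate 1 to 1.51 without F-L replicate 2. At an adjusted p of 0.1 by edgeR, 32 receptors were higher (16.2%, against 6.73% of all genes) and 13 lower, against 7.41% of all genes lower. P2ry6, the receptor for UDP, had 118 and 70.9 CPM in F-H, against 3.60 and 6.29 CPM in F-L (4.25 ± 0.46). C3ar1, the receptor for the complement fragment C3a, had 385 and 273 CPM in F-H, against 5.67 and 13.01 CPM in F-L (5.14 ± 0.62). Gpr137b, a receptor-like protein of the lysosome membrane, had 84.1 and 108 CPM in F-H, against 5.24 and 10.2 CPM in F-L (3.64 ± 0.42), and its near copy Gpr137b-ps had 93.8 and 86.8 CPM in F-H, against 5.87 and 10.8 CPM in F-L, so that reads may be split between them. All 3 receptors were higher in both F-H libraries, and F-L replicate 2 was above F-L replicate 1 in each. Among 58 G protein subunits and Rgs regulators (median 0.51, 0.92 with F-L replicate 2 left out, -1.15 with adipocyte scaling), Rgs1, which shortens the signal of Gi and Gq proteins, was the 1 that passed, with 98.1 and 67.9 CPM in F-H, against 0.247 and 0.804 CPM in F-L.

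Some receptors and transporters took their apparent direction from the choice of F-L library. Npr3, the clearance receptor for natriuretic peptides, had 567 and 828 CPM in F-H, against 53.5 and 752 CPM in F-L. The fold change on the log2 scale came to 3.79 without F-L replicate 2 and -0.12 without F-L replicate 1, and the groups overlapped. Ghr, the growth hormone receptor, had 383 and 523 CPM in F-H, against 53.4 and 630.2 CPM in F-L, with 3.17 without F-L replicate 2 and -0.49 without F-L replicate 1. Abcd2, a peroxisomal fatty acid transporter, had 223 and 314 CPM in F-H, against 33.2 and 351 CPM in F-L. For these 3 genes F-L replicate 1 was the low library, as it was for the adipocyte markers, and F-L replicate 2 lay within or close to the F-H range. Adgre5, an adhesion receptor, turned the other way, with 259 and 228 CPM in F-H, against 414 and 116 CPM in F-L, and it passed as higher without F-L replicate 1 (1.06, edgeR adjusted p = 0.0317).

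Small GTPases of cell shape and growth, with their activators and inhibitors, gave 7 rises and 0 falls among 167 genes tested (4.19% higher, against 0.615% of all genes), with a median of 0.64 (1.09 with F-L replicate 2 left out, -0.86 with adipocyte scaling). With each F-L library alone 40 (24%) were higher and 2 (1.20%) lower, against 5.02% and 3.53% of all genes. Arhgap25, which turns off Rac in phagocytes (chromosome 6, 87458544 to 87533261, mm10), had 194 and 125 CPM in F-H, against 2.20 and 3.43 CPM in F-L (5.82 ± 0.45). Vav1, an activator of Rac GTPases in blood cells, had 118 and 50.03 CPM in F-H, against 4.12 and 5.39 CPM in F-L (4.15 ± 0.52). Rac2, the Rac isoform of blood cells, had 196 and 79.6 CPM in F-H, against 6.66 and 9.40 CPM in F-L (4.10 ± 0.54). In each of these, F-H replicate 1 was well above F-H replicate 2, and both lay above F-L. The macrophage, T and NK cell, and B and plasma cell marker counts had the same order in the F-H libraries. Arhgdib, which holds small GTPases inactive, had 267 and 159.7 CPM in F-H, against 24.6 and 27.1 CPM in F-L (3.05 ± 0.34). Arhgap9 (4.33 ± 0.48), Rasa4 (3.0 ± 0.37) and Arhgap10 (2.21 ± 0.30), which switch GTPases off, also rose. Cdc42, a member present in nearly all cells, had 709 and 568 CPM in F-H, against 303 and 279 CPM in F-L (1.13 ± 0.32, adjusted p = 0.0992, edgeR).

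Phosphoinositides and diacylglycerol are lipids of the membrane that carry signals inward. Of 86 genes of this signalling, 4 rose (4.65%, against 0.615% of all genes) and 0 fell, with a median of 0.37 (0.69 with F-L replicate 2 left out, -1.18 with adipocyte scaling). Pik3ap1, an adaptor that brings PI3 kinase to receptors, had 278 and 133.9 CPM in F-H, against 11.5 and 12.2 CPM in F-L (4.12 ± 0.48). Prkcb, the beta isoform of protein kinase C, had 126 and 94.7 CPM in F-H, against 16.03 and 13.8 CPM in F-L (2.89 ± 0.30). Plek, pleckstrin, a substrate of protein kinase C, had 202 and 99.5 CPM in F-H, against 4.99 and 9.65 CPM in F-L (4.37 ± 0.56). The F-L libraries were nearly equal for Pik3ap1 and Prkcb and differed more for Plek. Dgkz, which converts diacylglycerol to phosphatidic acid, had 201 and 131 CPM in F-H, against 35.2 and 32.9 CPM in F-L (2.29 ± 0.31). Akt1 and Akt2, kinases downstream of insulin, did not pass (0.97 ± 0.29, adjusted p = 0.104, and 0.48 ± 0.29, adjusted p = 0.33, edgeR).

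**Figure D3:**
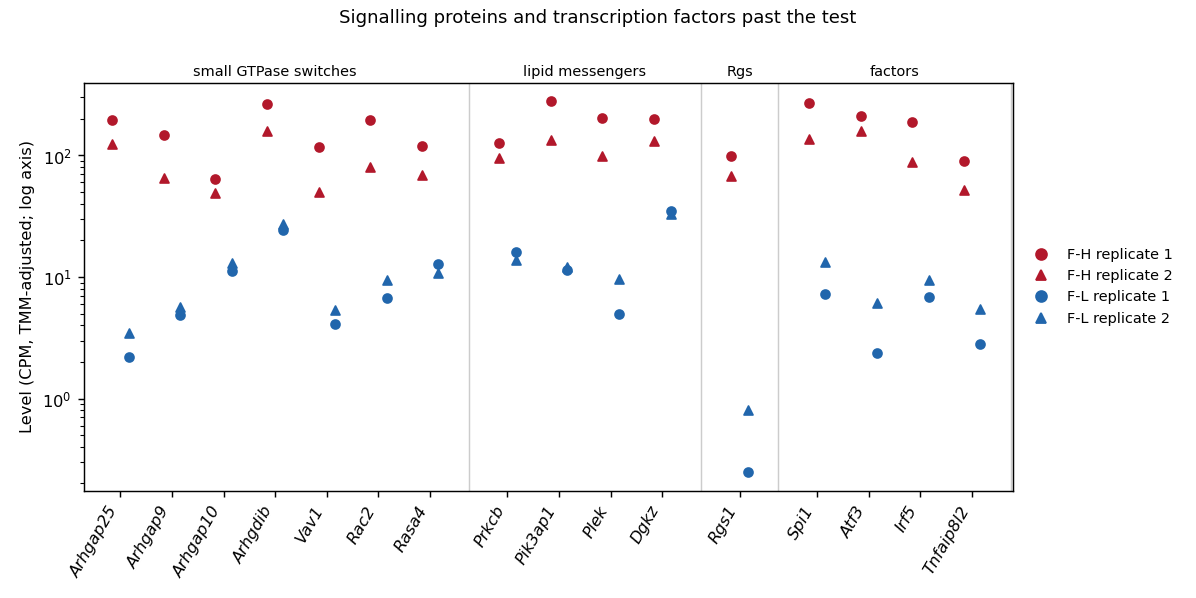
CPM (log axis) of 16 signalling proteins and transcription factors that passed, for each F-H library (red) and each F-L library (blue), with circles for replicate 1 and triangles for replicate 2. Every F-H point lies above both F-L points of its gene, as for every gene that passed as higher, and F-H replicate 1 lies above F-H replicate 2 in all 16.

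Other kinase and phosphatase lists held no call. None of 31 cytoplasmic tyrosine kinases passed edgeR's test at 0.05, although 20 had an unadjusted p under 0.05, DESeq2 called 20, and 14 (45.2%) were higher and 0 lower at an adjusted p of 0.1, against 6.73% of all genes higher, and the list had a median of 1.35 (-0.37 with adipocyte scaling). Lyn, a Src-family kinase of blood cells, had 217 and 93.0 CPM in F-H, against 11.2 and 22.6 CPM in F-L (3.20 ± 0.57, adjusted p = 0.0639, edgeR). Jak1, a kinase of cytokine receptors, had 339.7 and 258 CPM in F-H, against 144 and 135 CPM in F-L (1.10 ± 0.28, adjusted p = 0.0907, edgeR). Both had higher F-H libraries without overlap. Of 66 protein tyrosine phosphatases 0 passed by edgeR, with 29 at an unadjusted p under 0.05 and 26 called by DESeq2. The same counts were 0, 16 and 12 for 61 MAP kinase cascade genes and 0, 18 and 16 for 71 cyclic nucleotide signalling genes. For 28 Notch pathway genes they were 0, 7 and 7, and for 50 nuclear receptors 0, 8 and 7. Over all 22289 genes tested they were 193, 6507 and 6035. The medians of these 5 lists lay between -0.16 and 0.46 (-0.10 to 0.58 with F-L replicate 1 left out, -0.37 to 0.945 with F-L replicate 2 left out), with -2.13 to -1.25 under adipocyte scaling. Dusp1, a phosphatase that shuts off MAP kinases, had 143 and 163 CPM in F-H, against 19.1 and 46.5 CPM in F-L (2.22 ± 0.47, adjusted p = 0.076, edgeR).

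Stat, Irf, Socs and NF-kappaB genes, which include transcription factors and signalling regulators, had a median of 0.99 over 68 genes (-0.79 with adipocyte scaling). Lineage transcription factors had a median of 0.43 over 221 genes (0.74 with F-L replicate 2 left out, -1.15 with adipocyte scaling). In each list 2 genes rose (2.94% and 0.905%, against 0.615% of all genes) and 0 fell. Spi1, which encodes PU.1, a factor of myeloid cells (chromosome 2, 91082374 to 91115759, mm10), had 268 and 136 CPM in F-H, against 7.29 and 13.3 CPM in F-L (4.29 ± 0.53). Atf3, a stress-induced factor, had 211 and 159.7 CPM in F-H, against 2.38 and 6.16 CPM in F-L (5.44 ± 0.69). Irf5, an interferon regulatory factor of macrophages, had 189 and 89.0 CPM in F-H, against 6.79 and 9.43 CPM in F-L (4.10 ± 0.48). F-L replicate 2 was above F-L replicate 1 for all 3, and neither reached an F-H library. Tnfaip8l2, an inhibitor of immune receptor signalling, had 90.6 and 52.4 CPM in F-H, against 2.83 and 5.50 CPM in F-L (4.10 ± 0.51). Cebpa, an adipocyte factor, had 682 and 492 CPM in F-H, against 77.1 and 406 CPM in F-L, with F-L replicate 2 just below the F-H libraries (1.28 ± 0.78, adjusted p = 0.331, edgeR).

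Promoters of the genes that rose were searched for the letters that PU.1 and the Jun and Fos factors are known to bind. RefSeq (GRCm38.p6) gave a promoter for 103 of the 137 genes that rose, 41 of the 56 that fell and 15278 of the 22289 tested, and the 250 bases before each start were read on both strands, each motif on its own, so that matches of different motifs may overlap. The PU.1 core GAGGAAGT was present in 11 of the 103 (10.7%), in 0 of the 41 and in 2.93% of all genes tested. The AP-1 site TGANTCA was present in 12.6% of the genes that rose, 9.76% of those that fell and 6.48% of all. The E-box CACGTG, a site of the lysosomal regulators of the Mitf family, was present in 8.74% of those that rose, 2.44% of those that fell and 8.78% of all. A match is a description of the letters and not a bound site. For a view of the matches, 3 promoters with the PU.1 core and 2 with the AP-1 site are shown, from genes whose values are given here, with the match in capitals, on the strand of the gene.
Arhgap25, chr6:87533260-87533509, minus strand: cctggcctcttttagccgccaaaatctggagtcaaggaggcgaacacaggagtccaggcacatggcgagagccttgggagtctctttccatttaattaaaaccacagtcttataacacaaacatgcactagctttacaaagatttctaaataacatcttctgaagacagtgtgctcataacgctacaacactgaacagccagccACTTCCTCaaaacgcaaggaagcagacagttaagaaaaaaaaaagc
Vav1, chr17:57278850-57279099, plus strand: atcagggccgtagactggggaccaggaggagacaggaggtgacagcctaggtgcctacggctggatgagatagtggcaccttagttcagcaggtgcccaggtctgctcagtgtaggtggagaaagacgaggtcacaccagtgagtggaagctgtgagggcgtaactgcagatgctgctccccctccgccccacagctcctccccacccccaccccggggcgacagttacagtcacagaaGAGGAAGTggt
Dgkz, chr2:91950349-91950598, minus strand: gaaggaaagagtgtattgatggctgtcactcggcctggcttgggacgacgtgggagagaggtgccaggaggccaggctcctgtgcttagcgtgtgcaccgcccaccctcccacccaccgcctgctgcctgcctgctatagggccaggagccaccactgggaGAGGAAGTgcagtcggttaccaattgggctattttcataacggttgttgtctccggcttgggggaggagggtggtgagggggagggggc
Slc37a2, chr9:37255739-37255988, minus strand: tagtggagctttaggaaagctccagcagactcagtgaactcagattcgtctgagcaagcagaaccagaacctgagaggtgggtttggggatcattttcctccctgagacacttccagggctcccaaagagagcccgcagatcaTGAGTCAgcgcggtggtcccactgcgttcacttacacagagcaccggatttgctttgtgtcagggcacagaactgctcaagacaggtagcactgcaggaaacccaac
C3ar1, chr6:122856158-122856407, minus strand: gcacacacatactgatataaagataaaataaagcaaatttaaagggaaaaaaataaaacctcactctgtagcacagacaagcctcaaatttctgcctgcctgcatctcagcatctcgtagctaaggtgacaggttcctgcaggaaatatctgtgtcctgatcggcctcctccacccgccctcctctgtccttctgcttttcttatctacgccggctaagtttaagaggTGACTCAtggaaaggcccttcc
The match began 46 bases before the start in Arhgap25, where it reads on the opposite strand, 11 before it in Vav1, 89 in Dgkz, 107 in Slc37a2 and 22 in C3ar1.

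Receptors of leukocytes in the paired immunoglobulin-like families were the list with the largest share of calls among the families examined: 8 of 56 rose (14.3%, against 0.615% of all genes), 0 fell, and the median was 3.65 (2.37 with adipocyte scaling). Many members are genes of macrophages and other immune cells, whose marker counts were also higher in F-H. Sirpa, the receptor for the do-not-eat-me signal Cd47, had 896 and 453 CPM in F-H, against 21.2 and 33.2 CPM in F-L (4.63 ± 0.52). Cd300a, an inhibitory lipid receptor, had 224 and 173 CPM in F-H, against 4.27 and 7.15 CPM in F-L (5.12 ± 0.42). Lilrb4a, an inhibitory receptor of myeloid cells, had 190.3 and 153 CPM in F-H, against 3.53 and 7.29 CPM in F-L (4.99 ± 0.54). The groups were far apart for all 3, and the F-H libraries of Sirpa differed most. Pirb, Cd84, Ly9, Lilr4b and Cd300c2 also rose, with log2 fold changes of 4.73, 5.70, 5.50, 5.15 and 5.24, though Lilr4b and Lilrb4a are close copies whose reads may be split. Of 57 interleukin and interferon receptor chains (median 1.52, -0.03 with adipocyte scaling), 2 rose (3.51%, against 0.615% of all genes) and 0 fell. Il10rb, the shared chain of the IL-10 family, had 154 and 109.6 CPM in F-H, against 17.8 and 25.4 CPM in F-L (2.61 ± 0.33). Il7r, the IL-7 receptor and also a T cell marker, had 118 and 81.2 CPM in F-H, against 1.75 and 2.84 CPM in F-L (5.44 ± 0.53). Of 28 tetraspanins, which organise membrane proteins, 2 rose (7.14%, against 0.615% of all genes). The tetraspanins had a median of 0.39 (0.85 with F-L replicate 2 left out, -1.24 with adipocyte scaling). Cd9, also a macrophage marker, had 213 and 276 CPM in F-H, against 43.9 and 43.2 CPM in F-L (2.49 ± 0.27). Cd37 had 108 and 83.2 CPM in F-H, against 5.62 and 11.1 CPM in F-L (3.51 ± 0.43).

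Cytoskeletal genes gave 5 rises and 1 fall among 205 (2.44% and 0.488%, against 0.615% and 0.251% of all genes). Their median was 0.24 (0.015 with F-L replicate 1 left out, 0.62 with F-L replicate 2 left out, -1.46 with adipocyte scaling). Class I myosins link membranes to actin, and 3 of them rose. Myo1f had 398 and 246 CPM in F-H, against 6.63 and 9.61 CPM in F-L (5.31 ± 0.54). Myo1g had 130.3 and 75.8 CPM in F-H, against 4.32 and 8.15 CPM in F-L (4.05 ± 0.52). Myo1e had 269.9 and 157 CPM in F-H, against 24.4 and 16.1 CPM in F-L (3.40 ± 0.45). F-H replicate 1 was the highest library for all 3, and Myo1e was the one whose F-L replicate 1 exceeded F-L replicate 2. Coro1c, an actin-binding coronin, rose by 2.66 ± 0.33 and Tubb2a, a beta tubulin, by 2.12 ± 0.27 on the log2 scale. Kif17, a kinesin, fell, with 0.176 and 0.605 CPM in F-H, against 40.6 and 136 CPM in F-L (-7.82 ± 0.99). The most abundant members by RPKM did not pass, among them Actb, with 4093 and 2849 CPM in F-H, against 909.9 and 943 CPM in F-L (1.91 ± 0.48, adjusted p = 0.0891, edgeR).

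Growth factor receptors and guidance receptors had 1 call each (0.826% and 1.75% of those lists, against 0.615% of all genes higher). Igf2r, which clears IGF2 and carries enzymes to lysosomes, had 339 and 276 CPM in F-H, against 45.1 and 65.2 CPM in F-L (2.48 ± 0.32), the 1 call among 121 growth factor genes (median -0.10, -0.20 with F-L replicate 1 left out, 0.36 with F-L replicate 2 left out, -1.62 with adipocyte scaling). Nrp2, a co-receptor for semaphorins and VEGF-C, had 196 and 152 CPM in F-H, against 26.7 and 37.5 CPM in F-L (2.43 ± 0.31), the 1 call among 57 guidance genes (median 0.36, 0.16 with F-L replicate 1 left out, 0.95 with F-L replicate 2 left out, -1.10 with adipocyte scaling). Both rose in both F-H libraries without overlap. Cadherins, claudins and connexins had the lowest median of the 28 families, -1.32 over 80 genes (-3.25 with adipocyte scaling), with 1 rise, that of Pcdh7, a protocadherin with 96.4 and 107 CPM in F-H, against 28.1 and 28.6 CPM in F-L (1.85 ± 0.23). Cldn3, a claudin of epithelia, had 0.154 and 5.37 CPM in F-H, against 607 and 72.5 CPM in F-L (-6.94 ± 1.94, adjusted p = 0.0982, edgeR), a wide spread within each group that ran with the epididymis marker counts.

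Enzymes that build glycans gave 2 rises and 2 falls among 118 (1.69% each, against 0.615% and 0.251% of all genes). Their median was 0.43 (0.999 with F-L replicate 2 left out, -0.96 with adipocyte scaling). At an adjusted p of 0.1, 19 were higher (16.1%, against 6.73% of all genes) and 7 lower, against 7.41% of all genes lower. Gcnt1, which branches O-glycans, had 48.5 and 51.0 CPM in F-H, against 3.75 and 5.29 CPM in F-L (3.46 ± 0.37). Uap1l1, related to an enzyme of nucleotide sugar synthesis, had 98.03 and 88.7 CPM in F-H, against 16.1 and 10.6 CPM in F-L (2.81 ± 0.31). Galnt3, which starts O-glycans, had 0.506 and 2.06 CPM in F-H, against 165 and 94.5 CPM in F-L (-6.66 ± 0.82). The groups were separate for all 3. St6galnac2, a sialyltransferase, had 8.27 and 12.6 CPM in F-H, against 92.6 and 194 CPM in F-L (-3.78 ± 0.48). No serine protease inhibitor of 44 and no ectoenzyme of purines and phosphate of 44 passed by edgeR, with medians of 0.31 and 0.12 (-0.99 and -1.50 with adipocyte scaling). The inhibitors had a median of 1.31 with F-L replicate 2 left out, and the ectoenzymes of -0.10 with F-L replicate 1 left out and 0.31 with F-L replicate 2 left out. At an unadjusted p under 0.05 there were 17 inhibitors and 22 ectoenzymes, and DESeq2 called 16 and 19.

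**Figure D4:**
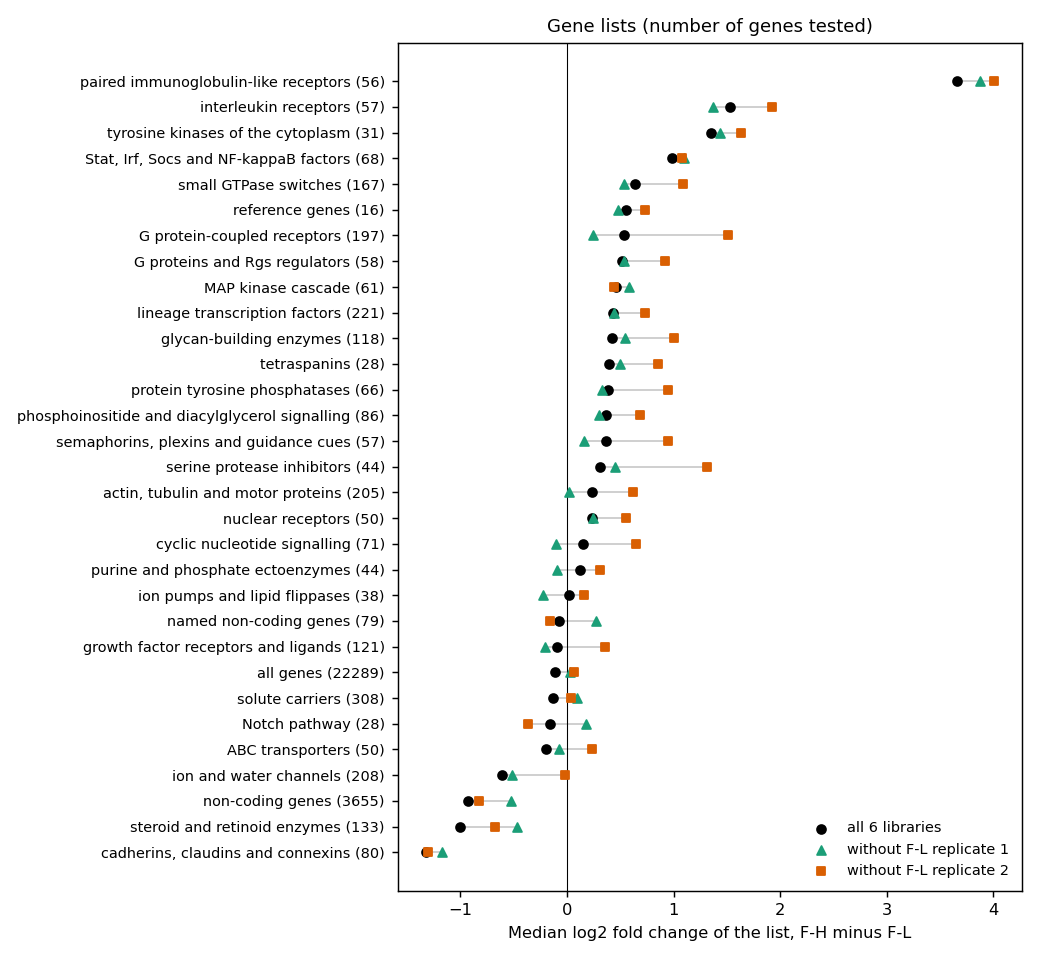
Median log2 fold change of F-H over F-L for 28 gene families, the reference genes, all non-coding genes and all genes (number tested in brackets), with all 6 libraries fitted (black circles), without F-L replicate 1 (green triangles) and without F-L replicate 2 (orange squares). The paired immunoglobulin-like receptors lie at 3.65 and the junction genes at -1.32, while the medians of several lists, solute carriers among them, change sign when an F-L library is left out.

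Enzymes and transfer proteins of lipid and steroid metabolism are given together here, a grouping made after the values were seen. Elovl2, which lengthens polyunsaturated fatty acids (chromosome 13, 41182382 to 41220403, mm10), had 0.286 and 0.193 CPM in F-H, against 72.0 and 70.1 CPM in F-L (-8.19 ± 0.42), the smallest p of the comparison. Fdft1, squalene synthase, the first enzyme committed to sterols (chromosome 14, 63145150 to 63181687, mm10), had 16.4 and 23.5 CPM in F-H, against 146 and 157 CPM in F-L (-2.92 ± 0.29). Both genes were nearly equal in the F-L libraries and low in both F-H libraries. Cyp17a1, an enzyme of androgen synthesis, had 10 and 3 counts in F-H, against 12567 and 8657 in F-L, and was the 1 call among 133 steroid and retinoid enzymes (median -1.01, -0.47 with F-L replicate 1 left out, -2.59 with adipocyte scaling). Stard10, a phospholipid transfer protein, had 4.46 and 11.03 CPM in F-H, against 349 and 211 CPM in F-L (-5.18 ± 0.61). Aldh1a1, which makes retinoic acid, had 71.1 and 126 CPM in F-H, against 1454 and 631 CPM in F-L (-3.40 ± 0.58, adjusted p = 0.061, edgeR). Within the same list, Akr1b7 differed between the F-H libraries themselves, at 1.12 and 2635 CPM, against 83.3 and 26.1 CPM in F-L. Elovl2 and Cyp17a1 are known to be active in the testis, where germ cells and steroid-making cells use them. The testis germ cell markers stood lower with them, 20 of 20 in F-H, 2 past the test. Within F-L, these markers took 0.0859% of counts in replicate 1 and 0.878% in replicate 2. Elovl2 was nearly equal in those libraries, and Cyp17a1 was higher in replicate 1, at 283 and 155 CPM. The part of testis material was not tested.

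Further genes that fell were detected in both F-L libraries. Npy, neuropeptide Y, had 3.43 and 1.89 CPM in F-H, against 1037 and 210.0 CPM in F-L (-7.87 ± 1.02). Ltf, lactoferrin, an iron-binding protein of secretions, had 0.990 and 1.72 CPM in F-H, against 725 and 371 CPM in F-L (-8.66 ± 0.99). Car2, carbonic anhydrase 2, had 4.07 and 4.42 CPM in F-H, against 247 and 94.6 CPM in F-L (-5.33 ± 0.56). These 3 were highest in F-L replicate 1, as the epididymis markers were, of which 9 of the 28 tested had positive fold changes and 2 fell past the test. Piwil2, a germline protein that works with small RNAs against transposons, had 1.28 and 1.48 CPM in F-H, against 61.5 and 74.2 CPM in F-L (-5.62 ± 0.36). Lrrc1, a scaffold of cell polarity, had 7.72 and 12.1 CPM in F-H, against 90.7 and 92.5 CPM in F-L (-3.21 ± 0.33). Mgarp, a mitochondrial protein of steroid-making tissues, had 3 counts in each F-H library, against 847 and 1037 in F-L. The F-L libraries of Lrrc1 and Mgarp were nearly equal.

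Of 17205 genes annotated as non-coding, 3655 were tested, 0 rose and 4 fell by edgeR (0.109%, against 0.251% of all genes), 972 had an unadjusted p under 0.05 and DESeq2 called 929. Their median was -0.92 (-0.52 with F-L replicate 1 left out, -2.78 with adipocyte scaling), against -0.02 over 16607 protein-coding genes (0.07 with F-L replicate 1 left out, 0.17 with F-L replicate 2 left out, -1.75 with adipocyte scaling). At an adjusted p of 0.1, 62 of the 3655 were higher (1.7%, against 6.73% of all genes) and 297 lower, against 7.41% of all genes lower. Over all 22289 genes, 6507 had an unadjusted p under 0.05 by edgeR and DESeq2 called 6035. Cep83os, transcribed from the strand opposite Cep83 (chromosome 10, 94673493 to 94688613, mm10), had 6.64 and 7.30 CPM in F-H, against 37.1 and 39.6 CPM in F-L (-2.46 ± 0.33), with the libraries of each group close together. The lncRNA Gm19589 had 1 and 2 counts in F-H, against 309 and 325 in F-L, and BB014433 had 4 and 3 counts in F-H, against 685 and 5599 in F-L. ENSMUSG00000104839.1, antisense to Prr27, had 1 and 7 counts in F-H, against 16675 and 3103 in F-L. Of these, Cep83os was the 1 with more than 10 counts in an F-H library.

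Some non-coding genes were higher in F-H by wide margins without passing the test. AI662270 had 87.5 and 44.2 CPM in F-H, against 2.18 and 5.82 CPM in F-L (4.04 ± 0.66, adjusted p = 0.0594, edgeR). Gm34181 had 3.43 and 2.90 CPM in F-H, against 0.112 and 0.0715 CPM in F-L (5.07 ± 0.80, adjusted p = 0.0563, edgeR). Rn7sk, the 7SK RNA that restrains transcription elongation, had 132 and 116 CPM in F-H, against 57.8 and 50.3 CPM in F-L (1.20 ± 0.26, adjusted p = 0.0766, edgeR). F-H lay above F-L without overlap in all 3. Rn7sk carries no poly(A) tail, and the library protocol selected messenger RNA. Host genes of small RNAs and named lncRNAs, 79 tested, held 0 calls by edgeR, 13 at an unadjusted p under 0.05, 9 called by DESeq2, and a median of -0.08 (0.27 with F-L replicate 1 left out, -0.16 with F-L replicate 2 left out, -1.93 with adipocyte scaling).

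**Figure D5:**
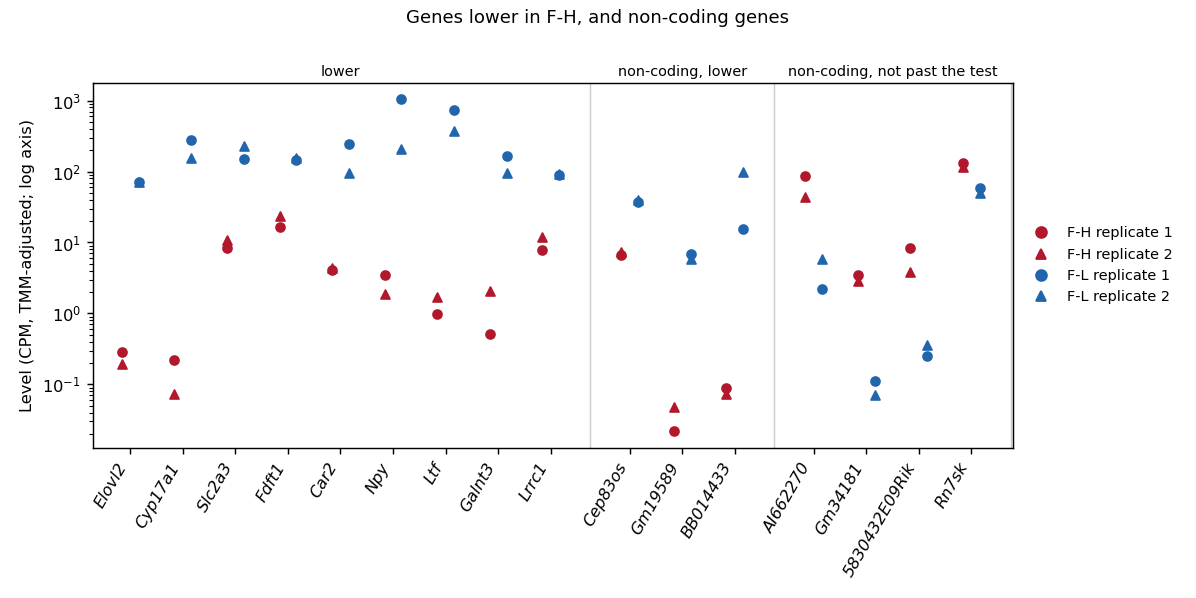
CPM (log axis) of 9 protein-coding genes that fell, 3 non-coding genes that fell and 4 non-coding genes that did not pass, for each F-H library (red) and each F-L library (blue), with circles for replicate 1 and triangles for replicate 2. The F-L points of Elovl2, Fdft1, Lrrc1 and Cep83os coincide, while those of Npy and BB014433 lie far apart.

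Genes often used as internal references spread widely in fold change, although none of 16 passed edgeR's test at 0.05, with 6 at an unadjusted p under 0.05 and 5 called by DESeq2. At an adjusted p of 0.1, 3 were higher, and their median was 0.55 (-1.13 with adipocyte scaling). Gusb, a lysosomal glucuronidase, had 397 and 294 CPM in F-H, against 80.3 and 56.1 CPM in F-L (2.34 ± 0.33, adjusted p = 0.052, edgeR). Hprt had 139.6 and 136 CPM in F-H, against 71.4 and 59.6 CPM in F-L (1.07 ± 0.24, adjusted p = 0.079, edgeR). Tbp had 14.2 and 12.4 CPM in F-H, against 12.8 and 45.9 CPM in F-L, where F-L replicate 2 alone was high, and it passed as lower with F-L replicate 1 left out (-1.80, adjusted p = 0.0134, edgeR), against 0.14 with F-L replicate 2 left out. A p that misses the threshold does not show equal levels.

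The F-H-L libraries, from the same fit but not part of this contrast, lay between the groups for 132 of the 137 genes that rose and 55 of the 56 that fell, a count that the wide gap between the groups partly fixes. Mrc2, a collagen receptor, had 140.1 and 183 CPM in F-H, 163 and 195 CPM in F-H-L and 16.6 and 19.6 CPM in F-L, so F-H-L was as high as F-H. Zranb3, a DNA repair helicase, had 83.2 and 61.0 CPM in F-H, 4.05 and 3.82 CPM in F-H-L and 5.17 and 8.22 CPM in F-L. Hmga1, a chromatin protein, had 165 and 110.2 CPM in F-H, 25.5 and 22.6 CPM in F-H-L and 28.5 and 26.7 CPM in F-L. For Zranb3 and Hmga1 both F-H-L libraries were below both F-L libraries. Gla, Myo1e and Spint3 were the other exceptions, with at least 1 F-H-L library inside the range of F-L.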

How the data were processed

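Messenger RNA of epididymal fat was sequenced in 6 libraries, 2 per group. The authors deposited raw counts per gene and library, RPKM computed from these counts, and a Length column (other unit: gene length in bases), per the file headers. Per the submitters' processing notes the tools were bcl2fastq, HISAT2 2.1.0 and HTSeq, with build mm10. The kit was TruSeq per the labels' protocols, and the strand setting is not given in the sources used here. For 27 genes, symbols turned into dates were restored by Entrez ID.

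The counts were fitted using edgeR 4.0.16 under R 4.3.3 (filterByExpr, TMM, quasi-likelihood test, 1 term per group over all 6 libraries, 3 residual degrees of freedom, Benjamini-Hochberg over 22289 genes), limma 3.58.1 and DESeq2 1.42.0. Tables used pandas 2.3.3 and numpy 2.4.6 under Python 3.11.15, and figures matplotlib 3.10.9. Tests are two-sided, and the SE was obtained by dividing the log2 fold change by the square root of F. On simulated counts with known changes in F-H, the main test recovered 1.06% of 4-fold and 31.6% of 16-fold changes, with 2 false calls. Most changes of these sizes were thus missed, so a gene or list without a call is not shown to be unchanged. Genes of 28 families, a reference list and 12 marker lists were taken by symbol. Named genes were, outside the macrophage, lymphocyte, epididymis and testis markers, the 12 rises and 12 falls of greatest size that passed at a mean RPKM of at least 2, per family the 2 rises and falls of smallest p and the 2 of highest RPKM, and per direction the 5 non-coding genes of smallest p, with repeats left out; further members past the test were named after their values were seen, and a few genes are not reported here. The members and lists were chosen with earlier results of these data known. Biotypes and promoters came from GENCODE and RefSeq tables. Alternatives were other normalizations, no filter, limma on RPKM, DESeq2, robust fits, fewer libraries, a replicate block and other thresholds.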

Additional observations from a re-analysis of the deposited data

How the results depend on the processing

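The number of genes called in F-H against F-L, 193, depended on most settings tried, and the causes were not tested. It was 0 with median-ratio size factors, 1 with library totals alone, 322 with upper-quartile factors, 3772 with scaling to the adipocyte markers, 6025 with no low-count filter, 6035 with DESeq2, 411 with limma on log2(RPKM + 1), 1040 with limma on log2(RPKM + 0.1), 0 with robust empirical Bayes, 0 with the F-H and F-L libraries alone and 3152 at an adjusted p of 0.1. Leaving out each library in turn gave 0 to 5799: 4474 when F-L replicate 1 was dropped, 5799 when F-L replicate 2 was dropped, and 0 without any of the other 4. The fits with 0 calls had 2950 to 6429 genes at an unadjusted p under 0.05. Genes called whichever F-L library was used, 193, numbered 0 (median-ratio), 1 (totals), 322 (upper quartile), 1936 (adipocyte), 3396 (no filter), 3224 (DESeq2), 410 and 953 (limma, pseudocounts 1 and 0.1), 0 (robust), 0 (both groups alone) and 2706 (adjusted p of 0.1). With the replicate block both counts were 0, with 5262 genes at an unadjusted p under 0.05. The differences between replicates in F-H and in F-L correlated across genes at r = 0.0244, and F-H-L was not compared. This value cannot tell whether the numbers pair libraries, since the F-L libraries also differed widely in marker content. An absolute log2 fold change of at least 1 left both at 193. Of the genes valued in the text, Adgre5 was the one whose sign turned in a fit that called it, at 1.06 without F-L replicate 1, against -0.12 with all libraries and -0.68 without F-L replicate 2. The sign also turned, with no call, for Npr3, Ghr, Abcd2 and Slc25a4 when F-L replicate 1 was dropped, for Tbp (0.14, against -1.14) when F-L replicate 2 was dropped, and, when F-H replicate 2 was dropped, for Akr1b7 (-5.56, against 4.59) and Adgre5 (0.01), which turned with the replicate block too (0.06). Of the 25 genes valued in the text that had not passed, 16 passed when F-L replicate 1 was dropped (Tbp, as lower, among them) and 17 when F-L replicate 2 was dropped. Under adipocyte scaling it turned for 9 genes, among them Akt1, Akt2, Cdc42, Jak1, Clic1, Clic4, Hprt and Rn7sk. The median of all genes was -0.12, against -0.34 with library totals and -1.85 with adipocyte scaling. Depth limits the folds of genes with few counts in either group, such as Gm19589 in F-H and Gm34181, with 5 and 4 counts, in F-L. The spread between F-L libraries enters every test.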

Other observations

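Genes of oxidant production and of lipid handling, in lysosomes and outside them, rose together in F-H, a grouping made after the values were seen and given as values only. Cybb, the catalytic subunit of the phagocyte NADPH oxidase, had 638 and 276 CPM in F-H, against 10.9 and 20.2 CPM in F-L (4.87 ± 0.64). Its partners Cyba (3.81 ± 0.36) and Ncf1 (4.12 ± 0.53) rose as well. Lipa, lysosomal acid lipase, had 879.9 and 662 CPM in F-H, against 66.1 and 42.3 CPM in F-L (3.83 ± 0.41). Gla, a lysosomal galactosidase, had 81.0 and 65.3 CPM in F-H, against 12.3 and 7.396 CPM in F-L (2.89 ± 0.38), and Pla2g15, the lysosomal phospholipase A2, had 252 and 179 CPM in F-H, against 29.2 and 37.8 CPM in F-L (2.69 ± 0.32). Pltp, a phospholipid transfer protein of plasma, rose by 3.18 ± 0.36 and Nceh1, a cholesterol ester hydrolase, by 4.21 ± 0.37 on the log2 scale. Both F-H libraries were above both F-L libraries for each, and the macrophage markers, at 2.13% and 1.45% of counts in F-H, against 0.0739% and 0.143% in F-L, moved with them; their part was not tested.

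Markers of other cell types were not all higher. Of 14 adipose progenitor markers 13 had positive fold changes (median 1.66, 0 past edgeR's test, 9 at an unadjusted p under 0.05, 7 called by DESeq2). All 10 mast cell markers (median 3.94), all 16 B and plasma cell markers (2.84), all 20 T and NK cell markers (3.88, with Il7r past the test) and all 12 endothelial markers (0.72) were positive. Over all genes tested, 46.1% were positive. Of the mast cell, B and plasma cell and endothelial markers 0 passed edgeR's test. In that order, 7, 10 and 1 had an unadjusted p under 0.05 by edgeR, and DESeq2 called 7, 10 and 0. Of the 12 mesothelial markers, 3 were positive (median -0.36). The median was 0.32 for 10 smooth muscle and pericyte markers, 0.76 for 7 erythroid markers and 0.80 for the adipocyte markers. Leaving out F-L replicate 1 and then F-L replicate 2 gave medians of -0.012 and 2.94 for adipocyte, 0.009 and 2.40 for erythroid, 0.17 and 1.86 for endothelial, -0.998 and 1.20 for mesothelial, and 0.72 and 0.09 for smooth muscle markers. With adipocyte scaling the median turned to -0.39 for endothelial, -1.93 for smooth muscle and -0.11 for erythroid markers. B and plasma cell markers took 0.849% and 0.112% of counts in F-H, against 0.0299% and 0.0380% in F-L, so F-H replicate 1 stood apart from F-H replicate 2.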
